A study of Mus musculus with 6 samples.

Results

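The heat shock protein and DnaJ chaperones were followed in the degenerating mouse retina between 2 and 8 months of age. They were chosen by gene symbol: every gene of the array annotation whose symbol begins with Hspa, Hspb, Hspd, Hspe, Hsph, Hsp90 or Dnaj, with the heat shock factors Hsf1 and Hsf2 added where probes carried those symbols, and with the binding proteins Hspbap1 and Hspbp1 left out. This gave 67 genes on 134 probes, out of 19057 genes with a symbol of their own on the array. They were 13 HSP70-class genes (Hspa), 8 genes with small heat shock protein symbols (Hspb), 2 HSP90 genes and 40 DnaJ genes. The others were Hspd1, Hspe1, Hsph1 and the factor Hsf2. Each gene was read from its probe with the highest mean level. Hsf1 and the constitutive Hsp90ab1 were not analysed here.

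All mice were of the rd1/rd1 strain, which is homozygous for a mutation of Pde6b, the rod phosphodiesterase beta subunit, and loses its rods and then its cones. Both ages carried this genotype, neither was treated, and age was the only difference between the groups that the labels give. There were 3 samples at 2 months and 3 at 8 months, on Illumina single-colour bead arrays. Each sample pooled 3 to 6 punches of central retina, 1.5 mm in diameter, so a sample is a pool of tissue and not a known number of animals. There was no wild-type retina and no age before degeneration, so the comparison is between a late and a later stage of the same disease.

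Heat shock proteins bind unfolded or misfolded proteins and help them fold, move or be degraded. HSP70 proteins work in cycles of ATP hydrolysis that DnaJ proteins (J-proteins, also called HSP40) start by handing over a client, HSP90 acts later on signalling proteins and receptors, and small heat shock proteins hold clients without using ATP. The heat shock factor HSF1 switches on the inducible cytosolic members when proteins misfold, by binding repeated GAA units called heat shock elements, while the members of the endoplasmic reticulum (ER) answer to the unfolded protein response through ER stress elements. In the retina, photoreceptors carry a heavy load of newly made membrane protein, and misfolding is a known cause of inherited retinal degeneration.

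The promoters were searched for both elements. RefSeq promoter windows of the GRCm38.p6 build, from 250 bases before to 50 bases after each annotated start, were found for 55 of the 67 genes. The heat shock element was searched on both strands as GAANNTTCNNGAA, which is the reverse complement of TTCNNGAANNTTC, and the ER element as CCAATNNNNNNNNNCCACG. A heat shock element lay in 0.603% of all 32851 windows and in 6 of the 71 chaperone windows (8.451%). These belonged to 4 chaperone genes, Hspd1, Hspe1, Dnajb6 and Hsph1, the last only after the start. Hsph1 was thus the only one of the 8 heat-inducible genes with a window that held a match, beside 2 mitochondrial genes and 1 constitutive gene. An ER element lay in 0.119% of all windows and in 3 of the 71 chaperone windows (4.225%). These belonged to 3 chaperone genes, Hspa5, Hsp90b1 and Dnajc3, all of the ER group. The shares were not tested. A match is a description of the letters, and a window with none says nothing of the factor. The stretches with a match before the start are printed below with the matched bases in capitals, 40 bases on either side where the window allows, in the direction of the gene.
Hspe1, chr1:55088019-55088116, plus strand: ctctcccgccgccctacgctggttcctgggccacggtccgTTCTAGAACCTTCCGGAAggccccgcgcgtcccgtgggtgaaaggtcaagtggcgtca
Dnajb6, chr5:29735812-29735904, plus strand: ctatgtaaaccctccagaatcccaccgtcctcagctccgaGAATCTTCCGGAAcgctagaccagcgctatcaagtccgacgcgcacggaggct
Hspa5, chr2:34771985-34772083, plus strand: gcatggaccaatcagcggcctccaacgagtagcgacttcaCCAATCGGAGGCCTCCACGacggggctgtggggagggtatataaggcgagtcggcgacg
Hsp90b1, chr10:86705598-86705694, minus strand: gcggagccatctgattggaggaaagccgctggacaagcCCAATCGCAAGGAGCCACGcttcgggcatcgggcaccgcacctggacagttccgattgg
Dnajc3, chr14:118937787-118937885, plus strand: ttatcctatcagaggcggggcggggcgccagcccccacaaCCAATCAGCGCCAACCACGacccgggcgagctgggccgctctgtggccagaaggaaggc
The Hspe1 stretch also lies before the start of Hspd1, which is read from the opposite strand, so this pair of mitochondrial chaperone genes shares 1 run of 18 bases in which 2 matches overlap. In Hsp90b1 a further ER element, on the other strand, lies 107 to 89 bases before the start.

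The arrays hold 45281 probes with values on a log2 scale and a median of 7.19 on each array. A level close to that median is close to background, and differences there are compressed. Dim probes were left out, and of the 12046 genes that remained limma called 27, or 0.224%, at an adjusted p below 0.05 (Benjamini-Hochberg). Nothing says whether the pools shared animals. Replicate numbers here are those of the titles, whereas by their descriptions 2 month replicates 1 and 2 are both numbered 1, and nothing says what that means. The p-values measure the spread between these 6 pools, and 3 arrays per age limit the precision. The tissue was retinal by its markers: the 11 tested markers of retinal neurons and Müller glia had a mean level of 11.1 in each 2 month sample and of 11.0 in each 8 month sample. Single markers ran from 7.51 (Pax6) to 13.0 (Slc32a1), and 7 of the 11 were lower at 8 months. All 8 month values lay above all 2 month values for 1 marker and below them for 4, together 45.5%, beside 15.0% of all tested genes. None was called, and Lhx1 moved most, by −0.44 (SE 0.061, limma adjusted p = 0.0555).

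No chaperone gene passed the test between the ages. Of the 67 genes 55 passed the filter, and 0 of the 55 were called (limma, smallest adjusted p = 0.141), beside 0.224% of all tested genes, 0.158% higher and 0.0664% lower. At an unadjusted p below 0.05 there were 4 higher at 8 months (Dnaja2, Hspb1, Dnajc7 and Dnajc15) and 2 lower (Hspb6 and Dnajc5b), which is 10.9% of the 55 beside 10.4% of all tested genes, 5.1% higher and 5.34% lower. The 3 values of 1 age lay wholly above those of the other for 9 of the 55, or 16.4%, beside 15.0% of all tested genes. Of the 9, 5 were higher at 8 months, beside 7.45% of all tested genes, and 4 lower, beside 7.59%. These shares are near the background. Changes of more than 0.1 in size were seen for 15 of the 55, or 27.3%, beside 28.3% of all tested genes, and of more than 0.2 for 3, or 5.45%, beside 8.11%. The median change, 8 months minus 2 months, was 0.020 on the log2 scale, and 33 changes were above 0 and 22 below, where 50.2% of all tested genes were above 0. Over all tested genes the median was 0.0005. The median half-width of the 95% confidence interval was 0.158 over the 55, and among them only Hspb6 had a change of more than 0.5 in size. The groups fixed by role had medians of 0.042 for 9 heat-inducible cytosolic genes, 0.034 for 20 constitutive cytosolic genes, 0.020 for 9 ER genes and 0.0075 for 10 mitochondrial genes. For the other small heat shock proteins and for the germ line genes, with 3 tested each, the medians were −0.061 and −0.0082. Differences between roles were not tested.

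**Figure D1:**
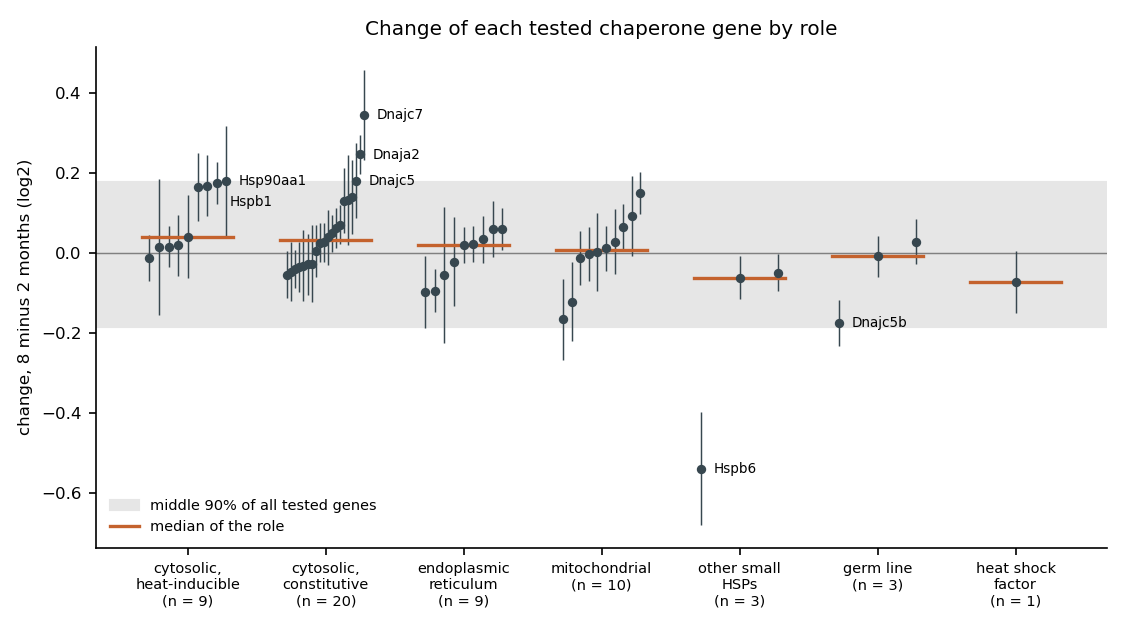
Change of each of the 55 tested chaperone genes (points, with limma's standard error) by role, on the log2 scale, where values above 0 are higher at 8 months. The orange lines are the medians of the roles, all between −0.073 and 0.042, and the grey band holds the middle 90% of all tested genes, from −0.18 to 0.18; Hspb6, at −0.54, lies farthest from it.

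The heat-inducible cytosolic genes, which HSF1 drives, were all tested, and 8 of 9 had changes above 0, beside 50.2% of all tested genes. That count moved with the samples: leaving out 2 month replicate 1 made it 9, and leaving out 2 month replicate 2 or 3, or 8 month replicate 1 or 3, made it 6. None passed over all genes. Their mean level relative to the 6 samples was 0.053, −0.074 and −0.108 in the 2 month samples and 0.020, 0.022 and 0.086 in the 8 month samples, so 2 month replicate 1 lay within the range of the 8 month samples. Without 2 month replicate 1 the median change of the role was 0.16. Leaving out 8 month replicate 1 gave a median of 0.12, and leaving out 2 month replicate 2 one of 0.022.

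Hspa1a, one of the near-identical pair of stress-inducible HSP70 genes, was at 7.67, 7.86 and 7.52 at 2 months and at 7.83, 7.84 and 7.87 at 8 months. The ages overlapped, because 2 month replicate 2 reached the level of the 8 month samples. Its change was 0.17 (SE 0.085, 95% interval −0.035 to 0.37, n = 3 per age, limma adjusted p = 0.596). Its copy Hspa1b was at 7.16 to 7.25 in all 6 samples, close to the array median, where a change could hardly be read (0.016, SE 0.051), and probes of such similar genes may share signal.

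Hspb1, the small heat shock protein HSP27 that also guards actin filaments, was at 7.60, 7.47 and 7.55 at 2 months and at 7.68, 7.74 and 7.73 at 8 months. All 8 month samples lay above all 2 month samples, and the change between the means was 0.18 (SE 0.053, 95% interval 0.052 to 0.30). Hspb1 did not pass over all genes (limma adjusted p = 0.301). Dnajb4, an inducible J-protein, also showed no overlap, at 7.63, 7.44 and 7.68 against 7.71, 7.71 and 7.84. Its change of 0.17 (SE 0.076) was 0.052 at its dimmer kept probe. Both Hspb1 and Dnajb4 lay within 0.5 of the array median.

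The brighter inducible genes varied as much within an age as between ages. Hsp90aa1, the inducible HSP90, was at 10.6, 10.4 and 10.1 and then at 10.5, 10.7 and 10.4, a change of 0.18 (SE 0.139, limma adjusted p = 0.749) that was −0.046 at its other kept probe. Hsph1, an HSP110 that releases nucleotide from HSP70, was at 10.4, 9.86 and 9.85 and then at 10.0, 9.78 and 10.3, with a change of 0.015 (SE 0.169). Dnajb1, the main J-protein partner of inducible HSP70, was at 11.3, 11.2 and 11.5 and then at 11.2, 11.4 and 11.6, with a change of 0.042 (SE 0.104). For each of these 3 genes the ages overlapped. Hspb8, which works with the co-chaperone Bag3 in clearing aggregates, was at 9.54 ± 0.091 and 9.53 ± 0.016 (SD, n = 3). Dnaja1, a J-protein of the HSP70 and HSP90 cycle, was dim, at 7.30 ± 0.135 and 7.32 ± 0.060.

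**Figure D2:**
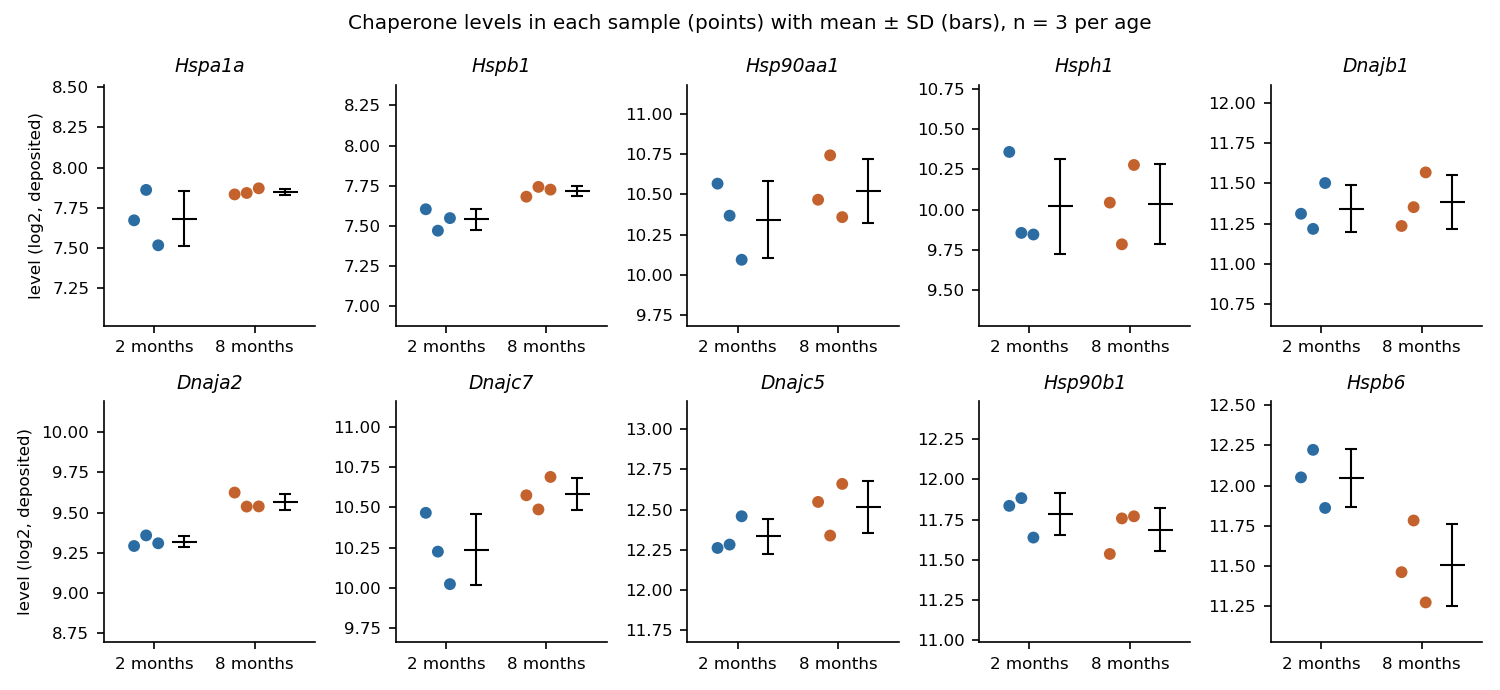
Deposited log2 levels of 10 chaperone genes in each of the 6 samples (blue, 2 months; orange, 8 months), with the mean and SD of each age as bars; every panel spans the same height of 1.5 on the log2 scale. Hspb1, Dnaja2, Dnajc7 and Hspb6 have no overlap between the ages, while Hsph1 and Dnajb1 spread as widely within an age as between them.

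Of the heat shock factors, Hsf2, which cooperates with HSF1, was at 7.86, 7.70 and 7.69 at 2 months and 7.59, 7.81 and 7.63 at 8 months, with overlapping ages and a change of −0.073 (SE 0.078). Other cytosolic co-chaperones, HSF1 target genes and the factor Hsf4 were listed apart from the chaperones, and 27 of 29 were tested. None passed over all genes, 12 changes were above 0 and 15 below, and the median was −0.010. The smallest p among them belonged to Bag3, an HSF1 target that links HSP70 to small heat shock proteins, at 9.83, 9.68 and 9.92 at 2 months and 10.3, 10.1 and 10.2 at 8 months. Every 8 month sample was above every 2 month sample, and the change between the means was 0.39 (SE 0.076, limma adjusted p = 0.140). Ptges3, the HSP90 co-chaperone p23, had a change of 0.28 (SE 0.077, limma adjusted p = 0.258). Cct6a, a subunit of the TRiC chaperonin that folds actin and tubulin, had one of −0.16 (SE 0.055, limma adjusted p = 0.378). Hsf4, a heat shock factor outside the symbols used here, was at 7.79, 7.86 and 7.82 and then at 8.08, 7.87 and 8.11. Its ages did not overlap, but 8 month replicate 2 came close to the 2 month samples. Its change was 0.20 (SE 0.072, limma adjusted p = 0.396).

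Immediate early genes, which neurons switch on with activity or stress, were a list with calls in the same arrays. All 10 tested of 12 listed had changes above 0, 3 rose by the test (Egr3, Egr4 and Fosb), and their mean level ran from 8.12 to 8.34 at 2 months and from 8.97 to 9.63 at 8 months. Whether that bears on the inducible chaperones was not tested. The 8 tested genes of reactive gliosis had a mean level of 8.69 to 9.35 at 2 months and 9.20 to 9.28 at 8 months, lowest in 2 month replicate 3, and 1, Lcn2, rose by the test. Their part was not tested either.

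The constitutive cytosolic group held the chaperone with the smallest p, Dnaja2, and 13 of its 20 tested genes had changes above 0, beside 50.2% of all tested genes. The mean level of the 20 relative to the 6 samples was −0.012, −0.049 and −0.029 in the 2 month samples. In the 8 month samples it was 0.025, 0.006 and 0.058, without overlap, although 2 month replicate 1 and 8 month replicate 2 lay close together. This difference between the ages was not tested, and the mean includes the largest changes of the group, those of Dnajc7 and Dnaja2. Dnaja2, a J-protein that serves Hspa8 in folding and in taking proteins out of aggregates, was at 9.29, 9.36 and 9.31 at 2 months and at 9.62, 9.54 and 9.54 at 8 months. The ages did not overlap, and the change of 0.25 (SE 0.050, 95% interval 0.13 to 0.36, 1.19-fold) had the smallest p of all the chaperones, but did not pass over all genes (limma adjusted p = 0.141). It was not shared by its other kept probe, at −0.027. Dnajc7, a J-protein with TPR repeats that passes clients between HSP70 and HSP90, was at 10.5, 10.2 and 10.0 and then at 10.6, 10.5 and 10.7. Here too the ages did not overlap, but 2 month replicate 1, at 10.47, came within 0.1 of 8 month replicate 2, at 10.49. Its change of 0.35 (SE 0.113, 95% interval 0.082 to 0.61) was the highest among the chaperones (limma adjusted p = 0.338).

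Both J-proteins of the nerve terminal were bright. Dnajc5, the cysteine string protein of synaptic vesicles that keeps SNAP-25 folded, was at 12.3, 12.3 and 12.5 and then at 12.5, 12.3 and 12.7. Its ages overlapped, with a change of 0.18 (SE 0.094, limma adjusted p = 0.596) and one of 0.23 at its other probe. Dnajc6, the neuronal auxilin that strips clathrin from vesicles, had a change of 0.13 (SE 0.081) and of 0.049 at its other bright probe. Hspa8, the constitutive HSP70 that both serve, was read by 3 bright probes with different changes. The brightest was at 13.2, 13.1 and 13.5 and then at 13.2, 13.3 and 13.2, a change of −0.031 (SE 0.089, 95% interval −0.24 to 0.18). The next was at 12.2, 11.9 and 11.8 and then at 12.2, 12.2 and 12.4, a change of 0.30, and the third, at 11.7, 11.1 and 12.4 and then at 12.1, 11.5 and 12.3, a change of 0.23 with a spread of over 1 within 2 months. At all 3 probes of Hspa8 the ages overlapped.

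**Figure D3:**
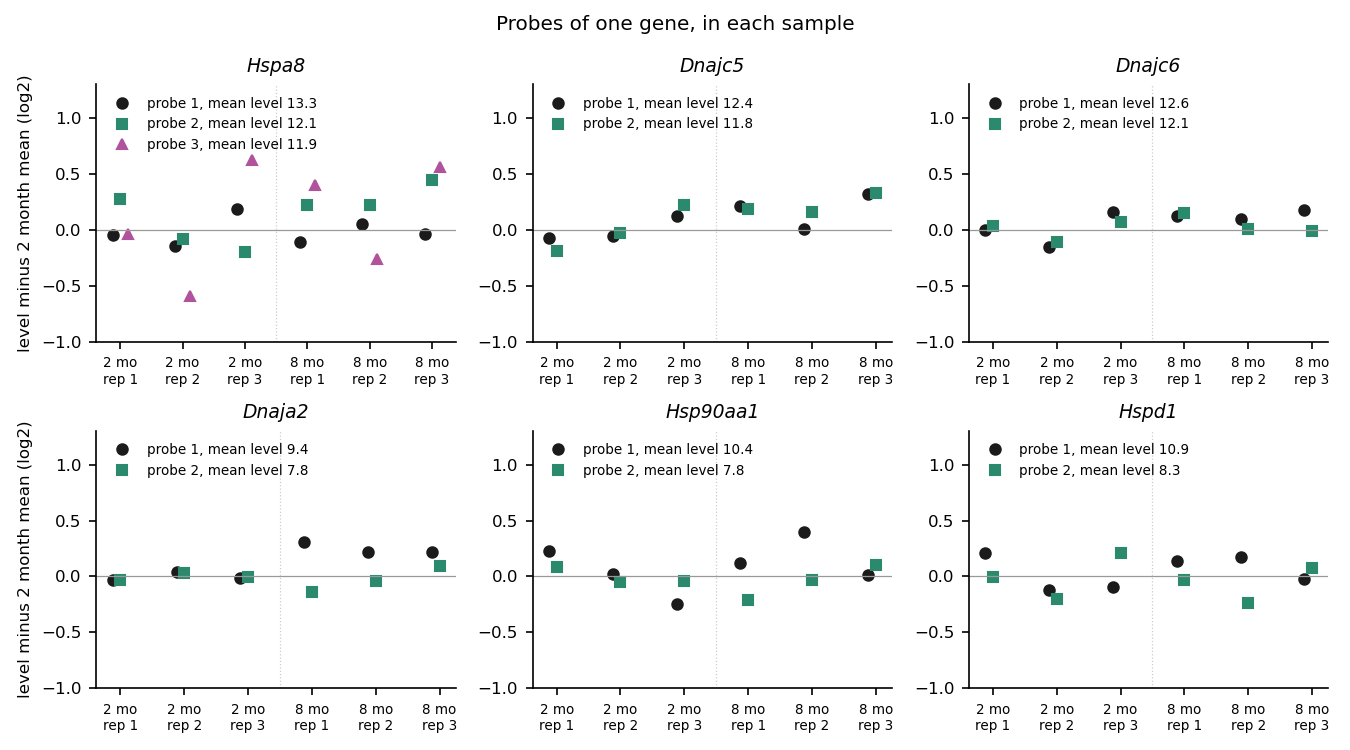
Levels of each kept probe of 6 chaperone genes in each sample, relative to that probe's 2 month mean (log2). The probes of Dnajc5 have changes of 0.18 and 0.23, those of Hspa8 changes from −0.031 to 0.30, and those of Dnaja2 changes of 0.25 and −0.027.

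The other constitutive genes had changes from −0.053 (Dnajc27) to 0.14 (Hspa4l), and none reached an unadjusted p of 0.05. Hspa2, an HSP70 best known from the testis that is also made in other tissues, was at 9.74 ± 0.0045 and 9.77 ± 0.057. Dnajb2, a J-protein enriched in neurons, was at 10.0 ± 0.088 and 10.1 ± 0.093. Dnajb6, which keeps aggregation-prone proteins soluble and carries a heat shock element as printed above, was at 10.2, 9.76 and 10.2 and then at 10.2, 10.1 and 10.2, with the ages overlapping and 2 month replicate 2 apart. Its change was 0.13 (SE 0.113), and its kept probes ran from −0.063 to 0.13.

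ER chaperones had changes of less than 0.1 in size throughout. Of 9 tested ER genes 5 had changes above 0 and 4 below, from −0.098 to 0.061, and none was called or reached an unadjusted p of 0.05. Hsp90b1, the ER form of HSP90, was at 11.8, 11.9 and 11.6 and then at 11.5, 11.8 and 11.8. The ages overlapped, with the change of −0.098 (SE 0.090, 95% interval −0.31 to 0.11, limma adjusted p = 0.802). Dnajb12, a J-protein of the ER membrane, was at 8.12, 8.11 and 8.12 and then at 8.10, 7.96 and 8.01. It was the only ER gene without overlap, with a change between the means of −0.093 (SE 0.053, limma adjusted p = 0.648). Hspa5, the master HSP70 of the ER known as BiP, was represented by 1 probe at 7.27 to 7.33 in all samples, so close to the array median that its change of 0.020 (SE 0.045) carries little information.

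The J-proteins of the ER had changes of both signs. Dnajb9, an unfolded protein response gene, was at 9.97, 10.4 and 9.92 and then at 9.71, 10.1 and 10.3, and Dnajc10, a disulphide reductase, at 10.5, 10.5 and 10.5 and then at 10.3, 10.5 and 10.7. In both genes 8 month replicate 1 was the lowest sample and the ages overlapped, with changes of −0.054 (SE 0.170) and −0.021 (SE 0.112). Dnajc3, which also restrains the kinase PERK, was at 8.23 ± 0.034 and 8.25 ± 0.0050. Dnajc16, Dnajc18 and Dnajc25 had changes of 0.060, 0.061 and 0.034. The 3 genes whose printed promoters hold an ER element, Hspa5, Hsp90b1 and Dnajc3, had a mean level relative to the 6 samples of 0.045, 0.035 and −0.052 and then of −0.059, 0.020 and 0.013, which overlap. For the 3 with a heat shock element before the start, Hspd1, Hspe1 and Dnajb6, it was 0.12, −0.090 and −0.061 and then 0.041, −0.017 and 0.0070, also with overlap. The other genes of the unfolded protein response gave no call among 21 tested of 27 listed, with 6 changes above 0 and 15 below and a median of −0.0090. Creld2, an ER stress gene, had a change of −0.19 (SE 0.094), Herpud1, which serves ER-associated degradation, one of −0.11 (SE 0.063) and Pdia3, a disulphide isomerase, one of −0.12 (SE 0.075). The smallest adjusted p of that list was 0.573 (limma).

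All 10 mitochondrial chaperone genes were tested and lay more than 0.5 above the array median, 6 with changes above 0 and 4 below. Taking the mean of a gene's kept probes instead, 3 of the 10 were above 0 and the median turned from 0.0075 to −0.010. Dnajc15, a J-protein of the inner membrane, was at 10.1, 10.1 and 10.2 and then at 10.3, 10.3 and 10.3. It was the only one without overlap, with a change of 0.15 (SE 0.052, 95% interval 0.029 to 0.27, limma adjusted p = 0.373). HSP60 and its lid HSP10 form 1 folding machine, and their genes share the promoter stretch printed above. Hspd1 (HSP60) was at 11.1, 10.7 and 10.8 and then at 11.0, 11.0 and 10.8, a change of 0.093 (SE 0.099), with −0.065 at its other kept probe. Hspe1 (HSP10) was at 9.35, 9.47 and 9.11 and then at 9.14, 9.03 and 9.27, a change of −0.17 (SE 0.101). In both genes the samples overlapped between the ages (limma adjusted p = 0.842 and 0.682), and the difference between their changes was not tested.

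Hspa9, the mitochondrial HSP70 that pulls proteins in through the inner membrane, was at 12.1 ± 0.156 and 12.2 ± 0.035. Dnaja3, its J-protein, was at 10.9, 10.7 and 11.0 and then at 10.8, 10.8 and 10.6, with a change of −0.12 (SE 0.099). Of the 14 other mitochondrial chaperones and proteases listed, all tested, none was called, 6 changes were above 0 and the median was −0.013. Clpx, the unfolding subunit of the ClpXP protease, had a change of 0.14 (SE 0.055, limma adjusted p = 0.435), Trap1, the mitochondrial HSP90, one of 0.11 (SE 0.057) and Timm44, an import subunit that holds the mitochondrial HSP70, one of −0.13 (SE 0.073).

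The remaining small heat shock proteins held the lowest change of all the chaperones. Hspb6 (HSP20), known from smooth, heart and skeletal muscle, was at 12.1, 12.2 and 11.9 at 2 months and at 11.5, 11.8 and 11.3 at 8 months. The ages did not overlap, although 8 month replicate 2, at 11.78, came within 0.1 of 2 month replicate 3, at 11.86. The change was −0.54 (SE 0.141, 95% interval −0.87 to −0.21, 0.689-fold), and it did not pass over all genes (limma adjusted p = 0.236). Leaving out single samples moved it between −0.68 (without 8 month replicate 2) and −0.42 (without 8 month replicate 3). Hspb2 and Hspb3, both from muscle, were dim, at 7.14 to 7.32, with changes of −0.061 (SE 0.054) and −0.048 (SE 0.046). Cryab, a small heat shock protein of lens and glia that the symbols used here do not cover, was at 9.69 ± 0.269 and 9.64 ± 0.176.

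Markers of other cell types, within and next to the retina, were uneven across the same samples. All 8 tested skeletal muscle markers of 12 listed had changes below 0, with a mean level of 7.43 to 8.83 at 2 months and 7.40 to 7.56 at 8 months, highest in 2 month replicate 2, and 1 of the 8 near the array median. The 8 tested markers of pericytes and smooth muscle lay at 7.67 to 7.98 and then at 7.58 to 7.72, and 5 of the 8 were near the array median. Pigment epithelium markers, 10 of 10 tested, lay at 9.13 to 9.73 and then at 8.62 to 9.16, lowest in 8 month replicate 3, and lens markers, 11 of 12 tested, at 7.64 to 8.19 and then at 7.33 to 7.98. The 3 tested haemoglobin genes lay at 10.7 to 12.1 and then at 9.53 to 9.61. The 9 markers of cones, which belong to the retina itself, lay at 9.81 to 10.2 and then at 8.52 to 9.13, lowest in 8 month replicate 3. Of these cone markers 2, Arr3 and Gnat2, were lower by the test. Changes were below 0 for 7 of the 9 and above 0 for Cngb3 (0.017) and Gnb3 (0.049). Rod markers, 6 of 8 tested, lay at 8.13 to 8.43 and then at 7.68 to 7.90. Their changes were above 0 for 3 and below for 3, from −1.81 (Sag) to 0.15 (Gnat1), and 0 were called. In 2 month replicate 3, where Hspb6 was above all 8 month samples, the skeletal muscle markers stood at −0.355 relative to the 6 samples, as low as in the 8 month samples. The pericyte and smooth muscle markers stood at 0.154 there, above all 8 month samples, and at −0.071 in 2 month replicate 1, within their range. Single markers of that list differed. Vtn was at 8.24, 8.78 and 8.37 and then at 7.74, 7.61 and 7.60 (limma adjusted p = 0.087). Acta2 was at 9.12, 10.2 and 10.4 and then at 9.65, 9.45 and 9.08. Of the 8 markers 7 had changes below 0, 2 of them without overlap (Vtn and Des), and 0 were called. The 11 markers of retinal neurons and Müller glia stood at 0.053, 0.047 and 0.022 at 2 months and at −0.063, −0.045 and −0.015 at 8 months. Of these 11, 4 had changes above 0 and 7 below. The Müller glia markers Rlbp1 and Glul had changes of −0.18 (SE 0.112, ages overlapping) and −0.20 (SE 0.084, no overlap). The part of any of these cell types in the Hspb6 value was not tested. In pooled tissue, fewer cells of a type and less RNA per cell cannot be told apart.

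**Figure D4:**
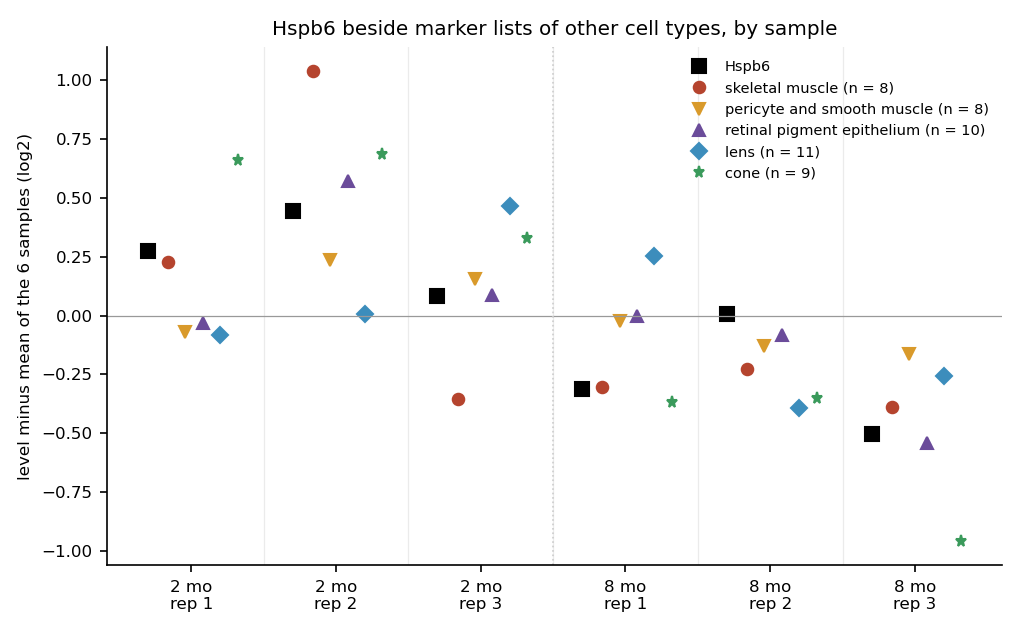
Level of Hspb6 and mean level of 5 marker lists in each sample, each relative to its own mean over the 6 samples (log2); n is the number of tested markers. Hspb6 is above its mean in all 2 month samples and close to it in 8 month replicate 2, and the muscle list peaks in 2 month replicate 2, at 1.04.

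Chaperones known best from the germ line made up the last group. Of 6 such genes 3 passed the filter, all within 0.5 of the array median. Dnajc5b, a relative of the cysteine string protein known from testis, was at 7.54, 7.39 and 7.45 and then at 7.27, 7.34 and 7.25, without overlap and with a change of −0.17 (SE 0.057, limma adjusted p = 0.341). Dnajb3 and Dnajb13 had changes of 0.029 and −0.0082. The 12 genes that did not pass the filter lay at 7.09 to 7.17 on average at their brightest probes. They were the cytosolic Hspa14, Dnajb7 and Dnajc9, and the ER genes Hspa13, Dnajb14 and Dnajc1. The others were Hspb7, Hspb9 and Hspb11, and the germ line genes Hspa1l, Dnajb8 and Dnajc5g.

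The chaperone genes differed from each other in how far they can be read. Of the 55 tested, 19 lay within 0.5 of the array median, 4 of the 9 inducible genes and 3 of the 9 ER genes among them. For 26 genes with more than 1 kept probe, 13 had kept probes with changes of opposite sign. The spread within an age was largest for Dnajb9, with an SD of 0.297 at 8 months, and for Hsph1, with 0.293 at 2 months, beside a median SD of 0.087 at 2 months and 0.060 at 8 months.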

How the data were processed

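The deposited table holds 1 log2 value per probe and sample, from 6.98 to 14.5, read as log2 from the range; a variance-stabilising transform cannot be told from it. Per the labels' protocols, biotinylated cRNA was hybridised to Illumina arrays. How the authors corrected background and normalized, and with what software, is not given in the sources used here. The sorted columns differ by at most 0.00307, as after quantile normalization.

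Ages and replicate numbers come from the sample titles; the descriptions number the 2 month samples differently (1, 1 and 2). Probes were named from GEO's platform annotation, some of it old. It gave 34885 probes 1 symbol, 18 several and 10378 none, and RefSeq gene numbers updated 0 of the symbols. A probe was kept when above the 50th percentile of its array on at least 3 arrays (22458 probes), and a gene was its kept probe with the highest mean. The test of each change was limma's (version 3.58.1, R 4.3.3; lmFit, eBayes, no covariate, Benjamini-Hochberg over 12046 genes, threshold 0.05) and the code was tested on simulated data. Degrees of freedom were 4 residual and 3.311 prior.

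The members, roles and lists were chosen with earlier results of these data known. Named chaperones are all tested inducible, ER and heat shock factor genes, Hspa8, Hspd1, Hspe1 and Hspa9, the 6 largest changes in each direction and the 3 smallest p, and of each pathway list the 3 smallest p. Hspb2, Hspb3, Dnajc6, Dnajb6, Hspa2, Dnajb2, Dnajc15, Dnajb3, Dnajb13, Dnajc27, Hspa4l, Cryab and Hsf4 were added after their values were seen. The protein features planned were not analysed here. Dnaja4, Dnajb11, Dnajc13, Dnajc21 and Dnajc22 were not analysed either. The alternatives were other normalizations, filters, probe averages, priors, a replicate block and leaving out each sample.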

Additional observations from a re-analysis of the deposited data

How the results depend on the processing

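No chaperone was called under 13 of the 14 alternatives, with the replicate number as a block as the exception, where 1, Hspb6, was lower (−0.54, SE 0.058, limma adjusted p = 0.0471; adjusted p from 0.0471 to 0.497 over the alternatives). The block rests on the titles' numbers, which the descriptions of the 2 month samples contradict. Same-numbered samples correlated at 0.024, 0.139 and 0.16 in their deviations. Each correlated best with its own number, for 2 month replicate 1 by only 0.024 against 0.0020 with 8 month replicate 2. Deviations from the mean of 3 samples offset each other, so 1 number correlates best in any case. No pairing can be read from these values. The main test was planned without a covariate, so the block was kept as an alternative and not taken as a pairing. Over all genes, 19 higher and 8 lower became 5 and 2 with no filter, 38 and 35 with the stricter filter and 52 and 52 with a robust prior and trend, and 18 were lower with the replicate block; without single samples the counts ran from 2 to 12 higher and 0 to 19 lower (0 lower without 2 month replicate 1, with 593 at an unadjusted p below 0.05). The median of ER genes was −0.0375 with the stricter filter, where 6 remained, and that of the other small heat shock proteins −0.54, where 1 remained. The median of mitochondrial genes, 0.0075, was −0.010 with the mean of kept probes and ran from −0.014 to 0.037 without single samples. Without single samples the other medians ran from 0.022 to 0.16 for inducible, 0.016 to 0.062 for constitutive and −0.0078 (without 8 month replicate 2) to 0.061 (without 8 month replicate 1) for ER genes. The cause was not tested. Of 29 named chaperones 19 kept their sign under every alternative that gave a value. Signal over background limits the dim genes, Hspa5 and Hspa1b among them.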
